A study of Mus musculus with 19 samples.

Results

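The UDP-glucuronosyltransferase genes of mouse liver are described here in livers with and without the ribonucleoprotein RALY. The 10 genes were Ugt1a1, Ugt1a6a, Ugt1a9, Ugt2a3, Ugt2b1, Ugt2b5, Ugt2b34, Ugt2b36, Ugt3a1 and Ugt3a2. They were chosen by symbol, with earlier results of these data known, out of 24054 rows of the deposited RNA-seq table. In that table, 21 rows have a symbol that starts with Ugt. All 10 were measured well above the minimum mean value of 1 used for testing, so none was lost to the filter. Both groups were C57BL/6 mice with LoxP sites around exons 3 and 4 of both Raly alleles (Raly flox/flox), fed chow and, unless otherwise specified in the study's methods, male. L-RalyKO mice received AAV8.TBG.Cre, in which the TBG promoter drives Cre recombinase in hepatocytes, and control mice (wild type in the labels) received AAV8.TBG.GFP. Livers were collected 4 weeks later, and the age of the mice is not given in the sources used here. There were 3 RNA-seq libraries per group, called livers 1 to 3 below. The labels do not state that each library is a separate animal, so p-values measure the spread between these libraries.

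Glucuronidation joins glucuronic acid to a fat-soluble compound, which makes it soluble enough to leave in bile or urine. The enzymes sit in the endoplasmic reticulum, take the sugar from UDP-glucuronic acid, and are most abundant in hepatocytes. They act on bilirubin, steroid hormones, bile acids, thyroid hormone and many drugs. The Ugt1a enzymes come from one locus in which alternative first exons, each with its own promoter, are spliced to a common set of later exons, whereas the Ugt2b enzymes come from separate genes in a cluster. The Ugt3a enzymes belong to the same superfamily but prefer other UDP-sugars.

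In the NCBIM37 (mm9) build with GENCODE annotation, the 3 Ugt1a members lay on the plus strand of chromosome 1. Ugt1a9 spanned chr1:89967375-90115572, Ugt1a6a spanned chr1:89999827-90116577, and Ugt1a1, the last in the row, spanned chr1:90108534-90115572. Exon 2 (chr1:90111619-90111750), exon 3 (chr1:90112370-90112457), exon 4 (chr1:90112713-90112932) and the start of exon 5 (chr1:90114702-90115572 in Ugt1a1) were shared by the 8 Ugt1a genes that have a row in the table. The junction of exon 1 with exon 2 is shown for the 3 members because it is where their messages stop differing. The last 45 bases of each first exon are in lower case and the first 30 bases of the shared exon 2 are in capitals.
Ugt1a1: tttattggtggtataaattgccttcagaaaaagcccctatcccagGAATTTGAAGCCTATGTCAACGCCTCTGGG
Ugt1a6a: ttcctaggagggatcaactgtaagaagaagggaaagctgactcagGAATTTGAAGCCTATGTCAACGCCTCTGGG
Ugt1a9: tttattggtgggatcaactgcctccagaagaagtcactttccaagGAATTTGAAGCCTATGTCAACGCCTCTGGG
Downstream of that junction, 100% of the 50-base stretches of each Ugt1a transcript also occurred in another gene. Within the first exon, the share was 0% for Ugt1a1, 6.63% for Ugt1a9 and 47.4% for Ugt1a6a, whose neighbour Ugt1a6b has 98.4% identical coding sequence. The row of Ugt1a2, which carries the same later exons, held only 0.0582 to 0.526 scaled CPM (reads relative to the library's effective size) in the 6 livers, so the reads of the shared exons were not counted in full to every row. How they were divided is not given in the sources used here, and the split between Ugt1a rows is therefore uncertain.

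The 5 members of the Ugt2 family lay on the minus strand of chromosome 5. In order along the chromosome they were Ugt2b34 (chr5:87318792-87335962), Ugt2b1 (chr5:87345663-87355555), Ugt2b36 (chr5:87494952-87521580), Ugt2b5 (chr5:87553981-87569365) and Ugt2a3 (chr5:87753997-87766220). Ugt3a1 (chr15:9209584-9244787) and Ugt3a2 (chr15:9265305-9300710) were neighbours on the plus strand of chromosome 15. The first 90 coding bases of 4 Ugt2b genes are shown because they tell how safely a read can be given to 1 gene. Capitals mark the bases that differ from Ugt2b5.
Ugt2b5: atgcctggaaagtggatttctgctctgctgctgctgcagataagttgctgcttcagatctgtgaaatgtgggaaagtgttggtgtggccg
Ugt2b38: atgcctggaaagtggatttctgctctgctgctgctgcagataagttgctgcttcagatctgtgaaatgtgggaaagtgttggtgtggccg
Ugt2b36: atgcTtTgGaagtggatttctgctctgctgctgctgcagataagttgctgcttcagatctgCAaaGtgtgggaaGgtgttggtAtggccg
Ugt2b1: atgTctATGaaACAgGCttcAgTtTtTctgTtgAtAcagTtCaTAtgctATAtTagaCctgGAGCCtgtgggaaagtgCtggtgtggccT
Ugt2b38, which is not a member, did not differ from Ugt2b5 in these bases and was 97% identical over the coding sequence. Ugt2b36 differed at 8 of the 90 bases and Ugt2b1 at 32. Over whole transcripts, 0% of the 50-base stretches of Ugt2b1 occurred in another gene, against 0.326% of Ugt2b36, 2.07% of Ugt2b34, 3.77% of Ugt2a3 and 41.7% of Ugt2b5. The Ugt2b5 stretches were shared mainly with Ugt2b38 (34.8%) and Ugt2b37 (15.5%). The 2 Ugt3a coding sequences were 93.3% identical and shared under 10% of their stretches (8.88% of Ugt3a1 and 8.55% of Ugt3a2).

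The targeted gene was measured first. Raly, an RNA-binding protein of the hnRNP family, had 6.34, 6.61 and 7.39 scaled CPM in L-RalyKO livers 1 to 3 and 50.1, 48.6 and 46.8 in control livers 1 to 3. The groups were far apart and the log2 fold change was -2.67 (SE 0.069, limma adjusted p = 6.92e-07). The libraries held 28302983 to 38052705 reads, of which 122261 to 179380 came from the 10 Ugt genes. Hepatocyte markers (Alb, Ttr, Apoa1, Serpina1a, Tat and Cps1) were abundant in every liver, as the tissue label says. Their summed level was 93182 to 94196 in L-RalyKO livers and 83205 to 92571 in control livers, which did not overlap, and none of the 6 passed the adjusted limma test. The sum was mostly Alb, and 2 of the 6 markers, named after their values were seen, were higher in every L-RalyKO liver (14.4% of all genes tested were). Apoa1 had 6874, 7203 and 7260 scaled CPM in L-RalyKO and 5141, 6116 and 6430 in control livers (log2 fold change 0.28, adjusted p = 0.141 by limma and 0.0198 by DESeq2). Cps1 had 5485, 5901 and 5292 against 4176, 4155 and 5026 (log2 fold change 0.32, adjusted p = 0.0845 by limma, 0.00316 by DESeq2 and 0.0309 by limma without control liver 3). The part of these markers in the results below was not tested. In whole liver, a change in the number of hepatocytes and a change in RNA per hepatocyte cannot be told apart.

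Of the 10 Ugt genes, 2 passed the test at an adjusted p under 0.05 by limma, Ugt2b1 and Ugt2b5, and both were higher in L-RalyKO liver. Over all 11580 genes tested, 6.55% passed, 3.36% as higher and 3.19% as lower. The members were chosen with earlier results of these data known, so counts of members are a description and not a test of the family. Before adjustment, 8 members had a p under 0.05, against 22.7% of all genes. Of these, 6 were higher (background 11.8%) and Ugt1a1 and Ugt3a1 were lower (background 10.9%). The 2 groups of livers did not overlap for 6 members, against 28.1% of all genes. Ugt2b1, Ugt2b5, Ugt2b34 and Ugt2b36 were separated upwards (background 14.4%) and Ugt1a1 and Ugt3a1 downwards (background 13.7%). The median log2 fold change was 0.18 over the members, with 7 above 0 and 3 below, and 0.00 over all genes tested. With 3 livers against 3, the two-sided exact permutation test of a single gene cannot give a p under 0.1, which is the value for each of the 6 separated genes.

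**Figure D1:**
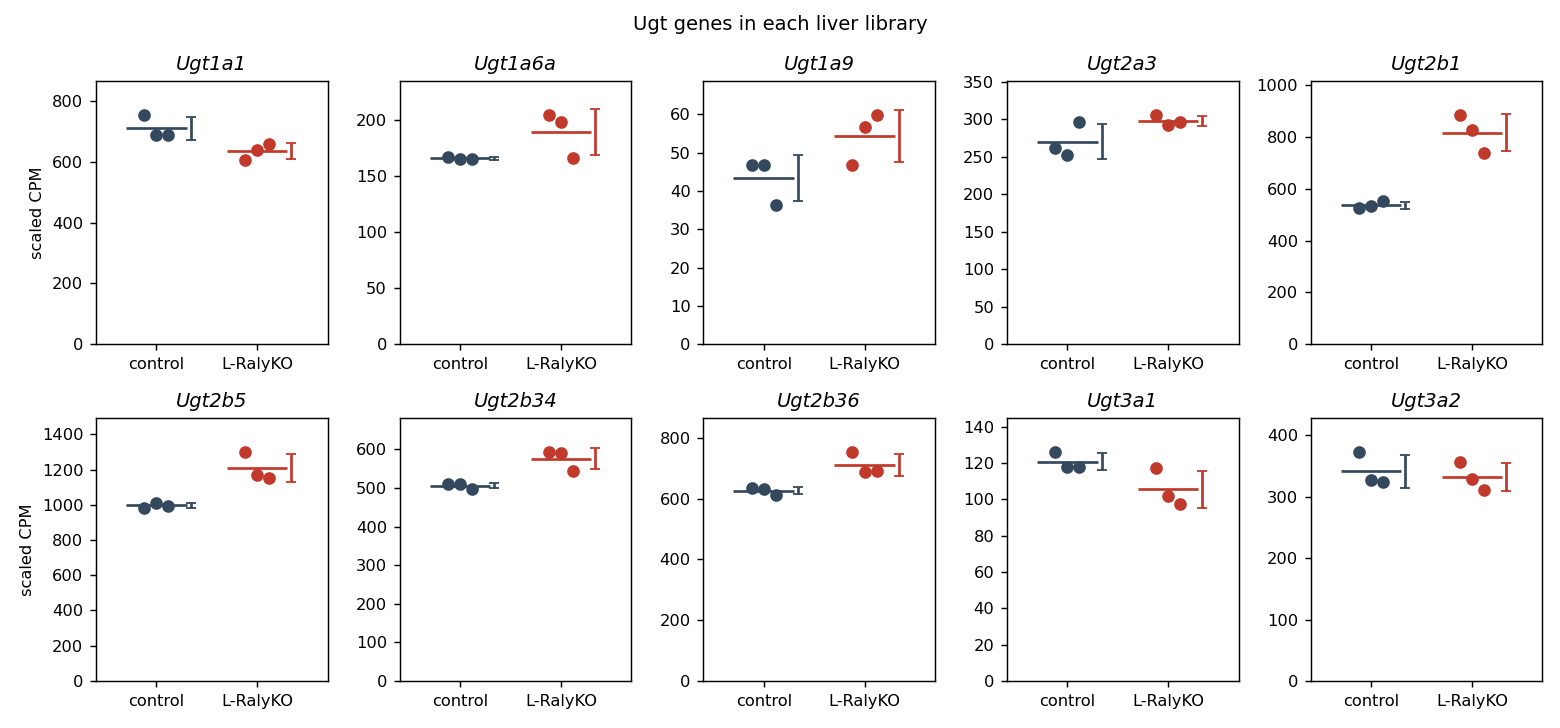
Scaled CPM of each of the 10 Ugt genes in the control (dark) and L-RalyKO (red) livers; each panel has its own vertical axis from 0, points are single libraries in the order 1 to 3, horizontal lines are means and the bars beside them are 1 SD (n = 3). Ugt2b1 shows the widest gap, with 740 to 884 in L-RalyKO against 525 to 552 in control livers, whereas Ugt1a1 and Ugt3a1 lie lower in L-RalyKO livers and Ugt3a2 overlaps.

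Ugt2b1, an enzyme whose rat counterpart conjugates bisphenol A, had the largest called change. It had 884, 827 and 740 scaled CPM in L-RalyKO livers 1 to 3 and 525, 533 and 552 in control livers 1 to 3. Every L-RalyKO liver was above every control liver, and the control values lay close together. The means were 817 ± 72.6 and 537 ± 14 (SD, n = 3), a ratio of 1.52. On the log2(value + 1) scale the difference was 0.60 (SE 0.069, 95% interval 0.44 to 0.76, limma adjusted p = 0.00254). Ugt2b1 passed the test in all 17 alternative settings, with log2 fold changes between 0.54 and 0.67 and adjusted p between 7.53e-14 and 0.0129 (limma, edgeR or DESeq2). Since its transcript shares no 50-base stretch with another gene, this row is the least open to misassigned reads among the Ugt2b members.

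Ugt2b5, from the same gene cluster, rose by less. It had 1300, 1172 and 1155 scaled CPM in L-RalyKO livers 1 to 3 and 985, 1013 and 996 in control livers 1 to 3. The groups did not overlap, and liver 1 stood above the other 2 L-RalyKO livers. The ratio of means was 1.21 and the log2 fold change 0.27 (SE 0.061, 95% interval 0.14 to 0.41, limma adjusted p = 0.0354). The call was held in 9 of the 17 alternatives and lost in 8, among them the 5 fits without L-RalyKO liver 1 (adjusted p = 0.113), L-RalyKO liver 2 (0.0677), control liver 1 (0.0996), control liver 2 (0.0793) or control liver 3 (0.0635). Summing Ugt2b5 with Ugt2b37 and Ugt2b38, which share its sequence, gave 1305, 1185 and 1172 in L-RalyKO and 992, 1018 and 1006 in control livers. The ratio of the sums was also 1.21. Ugt2b37 and Ugt2b38 added little to them (means of 0.648 and 11.2 in L-RalyKO livers), so this ratio cannot tell whether reads were misassigned.

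Ugt2b34 and Ugt2b36, the remaining Ugt2b members, did not pass the adjusted test although their groups did not overlap. Ugt2b34 had 593, 590 and 545 scaled CPM in L-RalyKO livers 1 to 3 and 511, 510 and 498 in control livers. Its log2 fold change was 0.19 (SE 0.052, 95% interval 0.07 to 0.30, limma adjusted p = 0.0716). The gap between the lowest L-RalyKO and the highest control value was small beside the level. Ugt2b36 had 753, 688 and 692 in L-RalyKO livers and 635, 631 and 612 in control livers, again with liver 1 highest. Its log2 fold change was 0.18 (SE 0.054, 95% interval 0.06 to 0.31, limma adjusted p = 0.0863). DESeq2 called both genes, with adjusted p of 0.0287 for Ugt2b34 and 0.0412 for Ugt2b36, and no other setting did.

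Ugt2a3, an enzyme of liver and intestine whose human counterpart conjugates bile acids, overlapped between groups. It had 305, 292 and 296 scaled CPM in L-RalyKO livers 1 to 3 and 262, 252 and 296 in control livers 1 to 3. Control liver 3 was as high as the L-RalyKO livers. The log2 fold change was 0.14 (SE 0.064, 95% interval -0.00 to 0.29, limma adjusted p = 0.231). Without control liver 3 it was 0.21 (limma adjusted p = 0.0496), and without control liver 2 it was 0.09 (limma adjusted p = 0.47).

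Ugt1a1, the enzyme that conjugates bilirubin, moved the other way without passing the adjusted test. It had 607, 640 and 659 scaled CPM in L-RalyKO livers 1 to 3 and 753, 690 and 687 in control livers 1 to 3. All L-RalyKO values were below all control values, with control liver 1 standing above the other controls. The means were 635 ± 26.1 and 710 ± 37.5 (SD, n = 3), and the log2 fold change was -0.16 (SE 0.059, 95% interval -0.29 to -0.03, limma adjusted p = 0.149). None of the 17 alternatives called it.

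Ugt1a6a, which conjugates small planar phenols, had 204, 198 and 166 scaled CPM in L-RalyKO livers 1 to 3 and 167, 165 and 165 in control livers 1 to 3. The controls were nearly equal, L-RalyKO livers 1 and 2 were above them, and L-RalyKO liver 3 lay among them. The log2 fold change was 0.19 (SE 0.076, 95% interval 0.02 to 0.36, limma adjusted p = 0.186, exact permutation p = 0.2). Without L-RalyKO liver 3 it was 0.28 (adjusted p = 0.0263). Summed with its near copy Ugt1a6b, the values were 588, 560 and 502 in L-RalyKO and 514, 512 and 492 in control livers, which overlapped, with a ratio of 1.09.

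Ugt1a9, which acts on bulky phenols such as propofol, was the lowest member. It had 46.7, 56.7 and 59.7 scaled CPM in L-RalyKO livers 1 to 3 and 46.7, 46.8 and 36.4 in control livers 1 to 3. L-RalyKO liver 1 matched control livers 1 and 2, and control liver 3 was lower. The other 2 L-RalyKO livers were above every control liver. The log2 fold change was 0.32 (SE 0.12, 95% interval 0.06 to 0.59, limma adjusted p = 0.142, exact permutation p = 0.3), the widest interval among the members. Without control liver 3 it was 0.21 (limma adjusted p = 0.277), and without L-RalyKO liver 1 it was 0.43 (limma adjusted p = 0.097).

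Single livers ranked alike in many of the members. L-RalyKO liver 1 had the highest value of its group in 8 of the 10 genes and the lowest in the other 2, Ugt1a1 and Ugt1a9. L-RalyKO liver 3 was lowest in 6 genes. Among controls, liver 1 was highest in 6 and liver 3 lowest in 6. How often each liver was highest or lowest over all genes was not counted, so this order is not shown to be particular to Ugt genes.

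The Ugt3a genes encode enzymes that transfer N-acetylglucosamine or glucose in place of glucuronic acid. Ugt3a1 had 117, 102 and 97.4 scaled CPM in L-RalyKO livers 1 to 3 and 126, 118 and 118 in control livers 1 to 3. L-RalyKO liver 1 came close to the lower controls, so that the groups were only just separate. The log2 fold change of Ugt3a1 was -0.20 (SE 0.07, 95% interval -0.36 to -0.04, limma adjusted p = 0.135). Ugt3a2 had 357, 329 and 311 in L-RalyKO livers and 373, 328 and 324 in control livers. These values overlapped almost fully, and the log2 fold change was -0.04 (SE 0.072, 95% interval -0.20 to 0.12, limma adjusted p = 0.797), with a sign that turned to 0.01 without L-RalyKO liver 3 and to 0.02 without control liver 1.

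**Figure D2:**
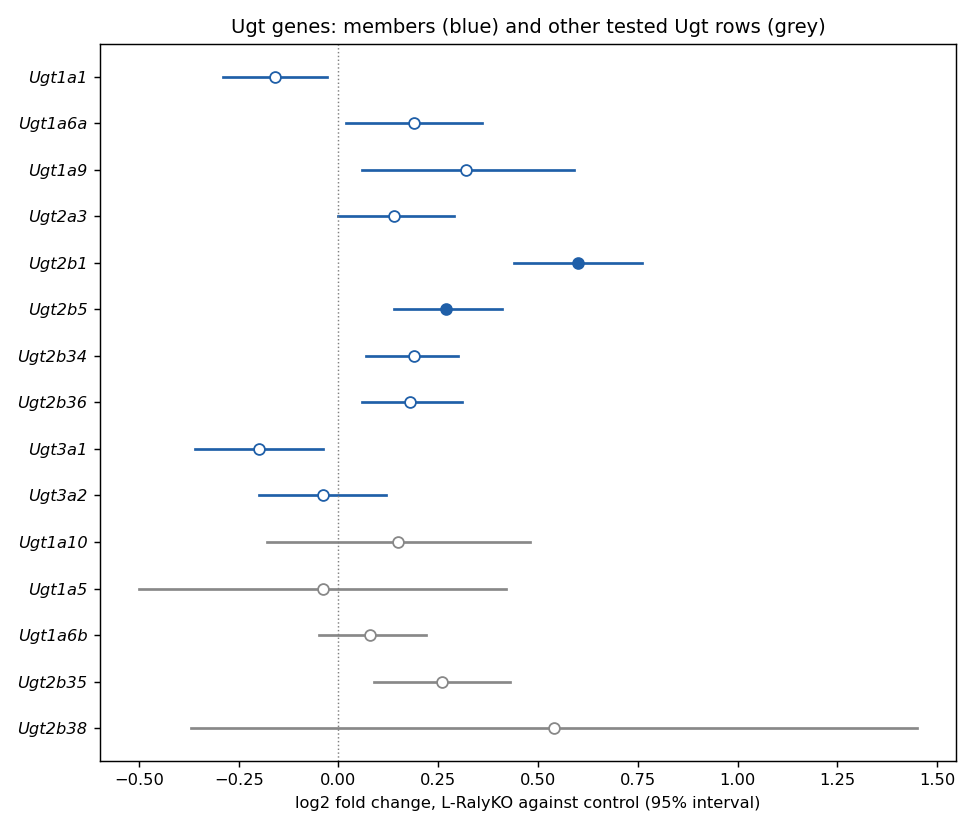
Log2 fold change (points) with 95% interval (lines) of the 10 members in blue and the 5 other tested Ugt rows in grey, from limma on log2(value + 1) with 3 L-RalyKO against 3 control livers; filled points have an adjusted p under 0.05. Filled points are Ugt2b1 at 0.60 and Ugt2b5 at 0.27, and the Ugt2b members all lie above 0.

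The 11 other Ugt rows were read beside the members. Ugt2b35, which lies on the plus strand within the same cluster, had 243, 222 and 202 scaled CPM in L-RalyKO livers 1 to 3 and 174, 187 and 194 in control livers 1 to 3. The groups did not overlap, and the log2 fold change was 0.26 (limma adjusted p = 0.0736). Ugt1a6b had 384, 362 and 337 in L-RalyKO and 347, 347 and 327 in control livers, with a log2 fold change of 0.08 (limma adjusted p = 0.463). Ugt1a5 (log2 fold change -0.04, adjusted p = 0.939), Ugt1a10 (0.15, adjusted p = 0.591) and Ugt2b38 (0.54, adjusted p = 0.47) overlapped between groups, and the Ugt2b38 values ran from 4.25 to 16.1 within the L-RalyKO livers alone. Of these 5 tested rows, 0 passed the adjusted limma test and 1, Ugt2b35, had an unadjusted p under 0.05 (background 6.55% and 22.7%). Ugt2b35 was called by DESeq2 (adjusted p = 0.0192) and without L-RalyKO liver 3 (limma adjusted p = 0.0463), and Ugt2b38 without L-RalyKO liver 1 (limma adjusted p = 0.0436). The log2 fold change of Ugt2b38 was 1.06 in that fit and 0.21 without L-RalyKO liver 3 (limma adjusted p = 0.818). The other 6 rows (Ugt1a2, Ugt1a7c, Ugt2a1, Ugt2a2, Ugt2b37 and Ugt8a) had a mean under 1 and were not tested.

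Because the split between Ugt1a rows is uncertain, the reads of each family were also summed, not per length and with no test, to compare the groups. The 8 Ugt1a rows together gave 1369, 1385 and 1304 scaled CPM in L-RalyKO livers 1 to 3 and 1457, 1363 and 1305 in control livers 1 to 3. The groups overlapped, with means of 1353 ± 43.2 and 1375 ± 76.9 (SD, n = 3) and a ratio of 0.984. The 7 Ugt2b rows together gave 3778, 3513 and 3351 in L-RalyKO and 2837, 2879 and 2861 in control livers. Here every L-RalyKO liver was above every control liver, with means of 3547 ± 216 and 2859 ± 21 (SD, n = 3) and a ratio of 1.24. The Ugt2b sum was 2.76, 2.54 and 2.57 times the Ugt1a sum in L-RalyKO livers and 1.95, 2.11 and 2.19 times in control livers, again without overlap.

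The shares within each family were also compared, with no test. Ugt2b1 made up 23.4%, 23.6% and 22.1% of the Ugt2b reads in L-RalyKO livers 1 to 3 and 18.5%, 18.5% and 19.3% in control livers 1 to 3. As parts of a fixed total, the shares of Ugt2b34, Ugt2b36 and Ugt2b5 were each lower in every L-RalyKO liver than in every control liver, with mean ratios of 0.918, 0.916 and 0.977, while the ratios of their own levels were 1.14, 1.14 and 1.21. Ugt1a1 made up 44.4%, 46.2% and 50.5% of the Ugt1a reads in L-RalyKO and 51.7%, 50.6% and 52.7% in control livers, the closest values being L-RalyKO liver 3 and control liver 2. In the same total, Ugt1a6a made up 14.9%, 14.3% and 12.7% in L-RalyKO and 11.5%, 12.1% and 12.6% in control livers, and the share of Ugt1a6b was likewise higher in every L-RalyKO liver (mean ratio 1.08). The shares of Ugt1a rows rest on the uncertain split of the shared exons. The 10 members held 86.7% to 88.1% of all Ugt reads in the 6 livers.

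**Figure D3:**
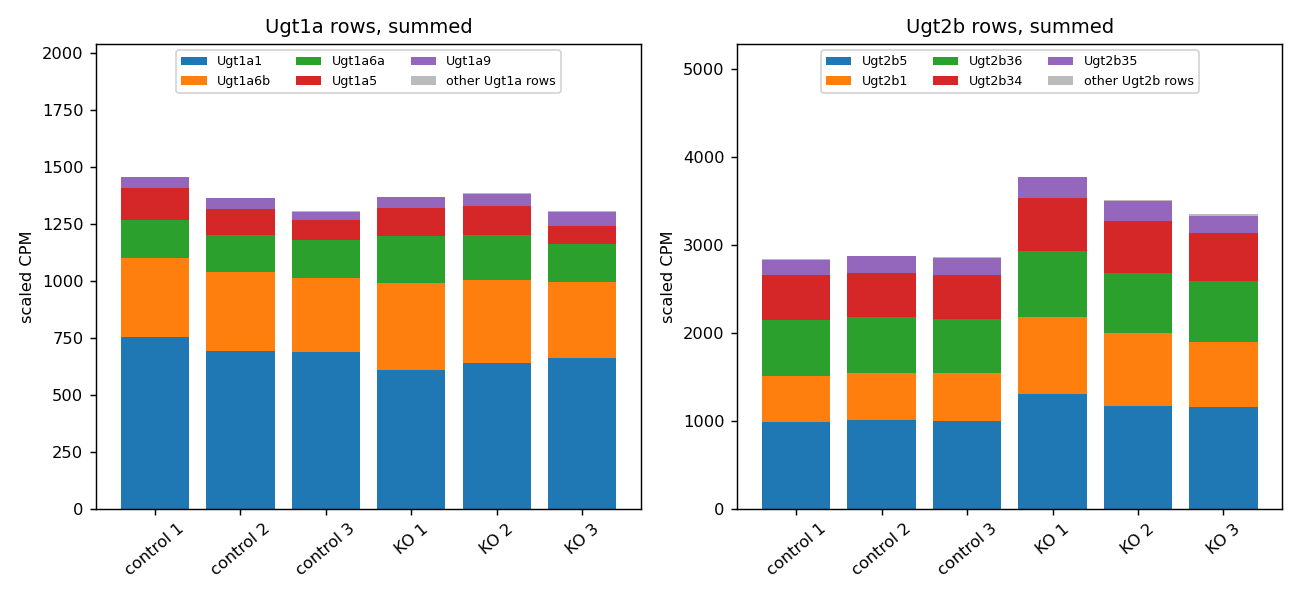
Stacked scaled CPM of the Ugt1a rows (left) and the Ugt2b rows (right) in each control and L-RalyKO (KO) liver, with vertical axes from 0 that differ between panels; rows with a mean under 20 are pooled in grey. The Ugt1a columns overlap between groups at 1304 to 1457, whereas the Ugt2b columns are 3351 to 3778 in L-RalyKO and 2837 to 2879 in control livers.

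Levels of single genes were ranked per kilobase of the main transcript. In control liver the order was Ugt2b5 (537 ± 7.58 scaled CPM per kilobase, SD, n = 3), Ugt2b36 (331 ± 6.62), Ugt1a1 (319 ± 16.9), Ugt2b1 (209 ± 5.42), Ugt2b34 (166 ± 2.49), Ugt3a2 (147 ± 11.6), Ugt2a3 (128 ± 10.8), Ugt1a6a (73 ± 0.592), Ugt3a1 (53.8 ± 2.01) and Ugt1a9 (19.8 ± 2.74). Ugt2b36 and Ugt1a1 overlapped, as did Ugt3a2 and Ugt2a3, and all other neighbours were separate in the 3 controls. In L-RalyKO liver Ugt2b1 stood at 317 ± 28.2 per kilobase, with values of 287 to 343 that overlapped those of Ugt1a1 (273 to 296, mean 286 ± 11.8). The Ugt1a levels depend on how shared exons were counted. Divided by the length of the first exon alone, control Ugt1a1 would be 778 ± 41.1 per kilobase, Ugt1a6a 173 ± 1.4 and Ugt1a9 49.2 ± 6.82, with the same order among these 3. On that basis Ugt1a1 would rank above Ugt2b5 in both groups (696 ± 28.6 against 651 ± 42.7 in L-RalyKO livers, with ranges of 665 to 722 and 622 to 700 that overlap) and above Ugt2b1, so the rank of Ugt1a1 is not fixed by these data.

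The promoters of the 2 genes that rose are shown. Each window runs from 250 bases before to 50 bases after the RefSeq start (table of GRCm38.p6) and matched the NCBIM37 genome exactly once, at the positions given here. Both strands were searched for CCAAT, a common promoter element, which is in capitals (ATTGG where it lies on the opposite strand). Ugt2b1 lay at chr5:87355479-87355778 and Ugt2b5 at chr5:87569316-87569615, both on the minus strand.
Ugt2b1: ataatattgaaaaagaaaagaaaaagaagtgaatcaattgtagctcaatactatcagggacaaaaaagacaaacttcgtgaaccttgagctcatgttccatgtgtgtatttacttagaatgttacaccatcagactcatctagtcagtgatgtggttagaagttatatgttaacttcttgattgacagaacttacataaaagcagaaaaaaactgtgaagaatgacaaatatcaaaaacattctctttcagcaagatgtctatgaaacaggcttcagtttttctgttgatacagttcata
Ugt2b5: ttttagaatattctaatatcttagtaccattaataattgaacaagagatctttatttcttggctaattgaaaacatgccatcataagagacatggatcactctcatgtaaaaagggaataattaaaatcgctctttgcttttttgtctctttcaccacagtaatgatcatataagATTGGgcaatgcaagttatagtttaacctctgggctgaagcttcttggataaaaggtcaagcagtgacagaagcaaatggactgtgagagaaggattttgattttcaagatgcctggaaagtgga
CCAAT occurred in 3 of the 9 member promoters in the table (Ugt1a6a, Ugt2b5 and Ugt2a3) and in 37.4% of all 32851 promoters of the same length. The Ugt2b1 window did not hold these letters. Ugt3a2 had no entry, and the RefSeq start of Ugt1a6a lay 31557 bases from the start of the annotated gene.

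Transcription factors and partners known to act on Ugt genes in liver came next, as a list of 14. Of these, 3 passed the test, all higher in L-RalyKO liver (background 3.36% higher, 6.55% either way), and the list's median log2 fold change was 0.09 against 0.00 over all genes. Nr1i2, which encodes the xenobiotic receptor PXR, had 116, 119 and 119 scaled CPM in L-RalyKO livers 1 to 3 and 97.2, 89.6 and 94.9 in control livers 1 to 3. The groups were clearly separate, and the log2 fold change was 0.33 (SE 0.048, limma adjusted p = 0.00725), called in all 17 alternatives. Hnf4a, a master regulator of hepatocyte genes, had 900, 809 and 829 in L-RalyKO and 520, 542 and 680 in control livers. Its log2 fold change was 0.55 (SE 0.099, limma adjusted p = 0.0155), and control liver 3 lay between the other controls and the L-RalyKO livers. The Hnf4a call was lost without L-RalyKO liver 1 (adjusted p = 0.0614), control liver 1 (0.051) or control liver 2 (0.0507). Foxa2, a pioneer factor of liver enhancers, had 33, 28.9 and 21.3 in L-RalyKO and 13.3, 13.9 and 16.7 in control livers. Its log2 fold change was 0.86 (SE 0.15, limma adjusted p = 0.0126), and the adjusted p was 0.0501 without control liver 1.

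The other 11 regulators did not pass the adjusted limma test. Foxa1 (log2 fold change 0.43, adjusted p = 0.055) and Foxa3 (0.64, adjusted p = 0.052), named after their values were seen, were close to the threshold. Foxa1 passed it by DESeq2 (adjusted p = 0.00471), by edgeR (0.05 after rounding) and without L-RalyKO liver 3 (0.0219). Foxa3 passed it with total count scaling (0.0445), with upper quartile scaling (0.0472) and without control liver 3 (0.00279). Nr1i3, the receptor CAR, named for its role, stood at -0.01 (limma adjusted p = 0.916).

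**Figure D4:**
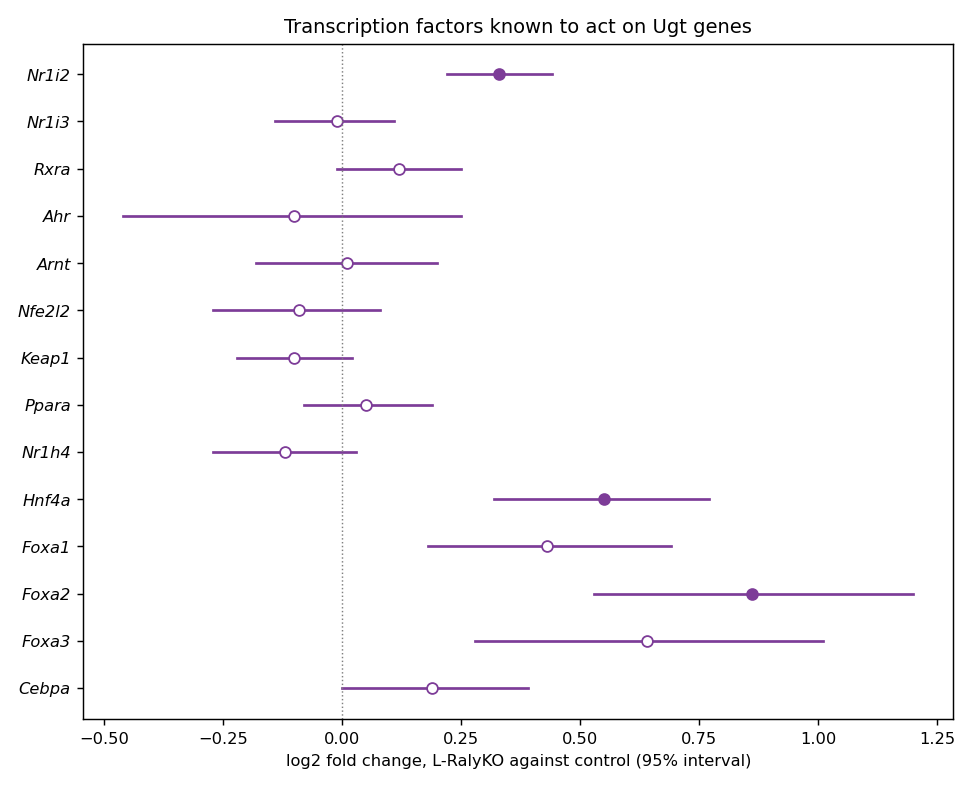
Log2 fold change (points) with 95% interval (lines) of 14 transcription factors and partners known to act on Ugt genes, from the same limma fit of 3 L-RalyKO against 3 control livers; filled points have an adjusted p under 0.05. Foxa2 (0.86), Hnf4a (0.55) and Nr1i2 (0.33) are filled, and the remaining 11 intervals include both signs or fall short after adjustment.

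Other genes under the same regulators were read as a list of 13, of which 2 rose (background 3.36%) and 1 fell (background 3.19%), with a median log2 fold change of -0.09. Cyp2c55, inducible through PXR and CAR, had 12.7, 11.9 and 11.2 scaled CPM in L-RalyKO livers and 9.63, 7.54 and 8.84 in control livers (log2 fold change 0.42, limma adjusted p = 0.0365). Cyp1a2, a target of the aryl hydrocarbon receptor, had 811, 656 and 751 in L-RalyKO and 479, 628 and 491 in control livers (0.48, limma adjusted p = 0.0441). Cyp4a14, a target of PPAR alpha, had 467, 590 and 645 in L-RalyKO and 802, 985 and 968 in control livers (-0.70, limma adjusted p = 0.0138). None of these groups overlapped. Cyp2c55 was called in 10 of 17 alternatives and lost its call without any single library but control liver 1 (adjusted p up to 0.123). Cyp1a2 was called in 9 of 17 and lost its call without L-RalyKO liver 1 or 3 or control liver 1 or 3 (adjusted p up to 0.141). Cyp4a14 was called in all 17. Other targets of the same receptors, named after their values were seen, did not pass the test and overlapped between groups. Among those of PXR and CAR, Cyp3a11 stood at -0.19 (limma adjusted p = 0.458) and Cyp2b10 at -0.47 (adjusted p = 0.438). With a single library left out, Cyp3a11 ranged from -0.31 to -0.06 and Cyp2b10 from -0.77 to -0.15. Among those of the aryl hydrocarbon receptor, Tiparp stood at -0.21 (limma adjusted p = 0.312) and Cyp1a1 at 0.05 (adjusted p = 0.85). With a single library left out, Tiparp ranged from -0.29 to -0.12 and Cyp1a1 from 0.00 to 0.15. Cyp4a10, like Cyp4a14 a target of PPAR alpha, stood at -0.11 (adjusted p = 0.339).

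Genes that supply or dispose of the sugar showed no call by limma. The supply of UDP-glucuronic acid takes a pyrophosphorylase (Ugp2) and a dehydrogenase (Ugdh), and 0 of its 6 genes passed the adjusted test or had an unadjusted p under 0.05 (median log2 fold change 0.01). Ugp2 stood at a log2 difference of 0.07 (adjusted p = 0.437) and Pgm2 at -0.01 (adjusted p = 0.903). Ugdh, named for its role, had 238, 185 and 157 scaled CPM in L-RalyKO and 196, 189 and 168 in control livers, a spread too wide to fix a sign (0.05, 95% interval -0.25 to 0.36). The pathway from glucuronic acid to ascorbate and pentose had 0 of 6 tested genes past the adjusted test and 2 with an unadjusted p under 0.05 (background 22.7%, median 0.04). Rgn, a lactonase of ascorbate synthesis, stood at 0.19 (adjusted p = 0.298) and Gulo, the last enzyme of that synthesis, at 0.27 (adjusted p = 0.0883 by limma and 0.0231 by DESeq2). The 2 with an unadjusted p under 0.05 were Gulo and Cryl1, the crystallin-like dehydrogenase of gulonate. Cryl1, named after its values were seen, had 13.9, 21.3 and 16.9 scaled CPM in L-RalyKO and 21.7, 23.2 and 23.1 in control livers, lower in every L-RalyKO liver (log2 fold change -0.39, limma adjusted p = 0.113, 0.0248 without L-RalyKO liver 2, and 0.0429 by DESeq2).

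Of the 2 genes for cleavage of glucuronides or their retention in the endoplasmic reticulum, 0 passed the adjusted test and 1 had an unadjusted p under 0.05 (background 22.7%). Gusb, the glucuronidase, stood at a log2 difference of 0.05 (adjusted p = 0.636). Ces1e, the esterase that anchors it, had 236, 241 and 203 scaled CPM in L-RalyKO and 285, 282 and 254 in control livers. Ces1e was lower in every L-RalyKO liver, with a log2 fold change of -0.27 (limma adjusted p = 0.0698). It was called without control liver 3 (0.0483), with total count scaling (0.0495) and by DESeq2 (adjusted p = 0.0123). Bilirubin formation had 0 of 4 genes past either threshold (median 0.01), with Blvrb at -0.03 (adjusted p = 0.87) and Hmox2 at 0.04 (adjusted p = 0.748). Export of glucuronides had 0 of 4 past the adjusted test and 2 with an unadjusted p under 0.05 (background 22.7%, median -0.09). Among the exporters, Abcc2, of the bile canaliculus, was at 0.13 (adjusted p = 0.198) and Abcc3, of the sinusoidal side, at -0.11 (adjusted p = 0.391). The 2 with an unadjusted p under 0.05 were Abcc2 and Abcg2. Abcc2 was higher in every L-RalyKO liver (590 to 647 scaled CPM against 553 to 584 in control livers). Abcg2, named after its values were seen, was lower in every L-RalyKO liver (80.7 to 83.9 against 85.7 to 102). Its log2 fold change was -0.16 (limma adjusted p = 0.214). Uptake of organic anions had 0 of 4 past the adjusted test and 1 with an unadjusted p under 0.05 (background 22.7%, median 0.20), with Slco1b2 at 0.10 (adjusted p = 0.339) and Slco1a1 at 0.31 (adjusted p = 0.152, and 0.0385 without control liver 2). Over all 53 tested genes of these 8 lists, 5 were called higher and 1 lower (background 3.36% and 3.19%), and DESeq2 called 10 (background 9.36%).

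Markers of non-hepatocyte cells were read beside these results. No marker gene in any list passed the adjusted limma test. The summed levels overlapped between groups for cholangiocytes (32.2 to 41 in L-RalyKO, 32.5 to 34.7 in control livers), Kupffer cells and macrophages (133 to 170 against 127 to 189), sinusoidal endothelial cells (134 to 170 against 151 to 161) and stellate cells and fibroblasts (204 to 269 against 213 to 237). The cholangiocyte sum was mostly Spp1, and 2 other genes of that list, named after their values were seen, were higher in every L-RalyKO liver (background 14.4%). Sox9 had 5.88, 4.7 and 4.29 scaled CPM in L-RalyKO and 4.05, 2.81 and 2.46 in control livers (log2 fold change 0.55, limma adjusted p = 0.0774, 0.0376 without control liver 1, and 0.0277 by DESeq2). Krt19, too low to be tested, had 0.553, 0.551 and 1.16 against 0.328, 0.456 and 0.405. The part of these cells in the results above was not tested. The summed levels also overlapped for lymphocytes (6.38 to 8.68 against 7.87 to 10.2), red blood cells (641 to 1258 against 665 to 1101) and kidney or gut epithelium (71.8 to 86.1 against 66.8 to 85.6). The kidney or gut sum was mostly Fabp2, the intestinal fatty acid binding protein. Fabp2 had 70.6 to 85.6 scaled CPM in L-RalyKO and 66.1 to 85.2 in control livers (log2 fold change -0.02). In the same list, Umod, a marker of kidney tubule, was at 0 in all 6 livers, and Slc34a1, Lrp2, Vil1 and Lct were too low to be tested.

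Across the 6 livers, the genes with the pattern most like Ugt2b1 were Slc38a3, a glutamine transporter (Pearson r 0.997 on log2(value + 1)), Zfand4 (0.995) and Cdc25a (0.995). These correlations are a description over 6 livers that share the group difference, and 496 of 11570 other genes had r above 0.9. Zfand4 had means of 27.9 in L-RalyKO and 13.9 in control livers, and Slc38a3 had 1888 and 1617.

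The members differed in how far their values depended on the choices made in the fit. Only Ugt2b1 was called in every setting. Ugt2b5 was called in some, Ugt2b34 and Ugt2b36 by DESeq2 alone, Ugt1a6a only without L-RalyKO liver 3 and Ugt2a3 only without control liver 3. Ugt1a1, Ugt1a9, Ugt3a1 and Ugt3a2 were called in none. Apart from Ugt3a2, every member kept the sign of its log2 fold change in all 17 alternatives.

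**Figure D5:**
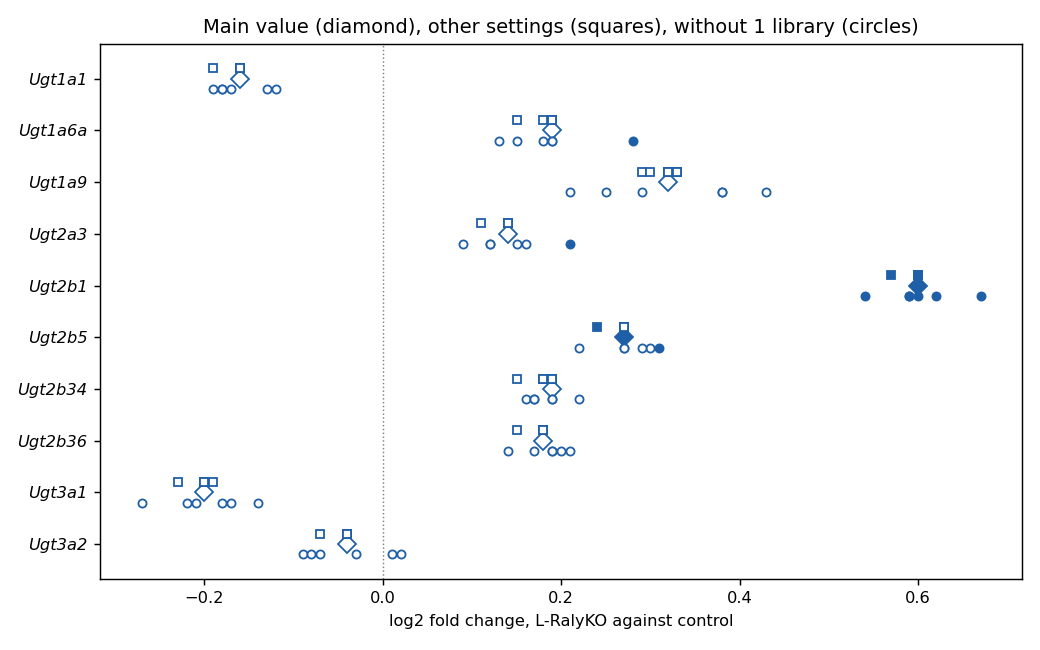
Log2 fold change of each member under the main fit (diamonds), 11 other settings (squares, drawn above) and 6 fits that leave out 1 library each (circles, drawn below); filled symbols have an adjusted p under 0.05. Ugt2b1 is filled throughout, between 0.54 and 0.67, Ugt2b5 is filled in part, and Ugt3a2 crosses 0.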

How the data were processed

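Liver RNA was sequenced as paired-end stranded libraries. The authors' methods name TopHat, mm9 and Cufflinks 2.0.2, while the tool that counted the deposited table is not given in the sources used here. The deposited values are a signal: read counts per gene that the authors divided by each library's effective size (scaled CPM). Whole reads were recovered from 100% of values within 0.01 of a whole number, and 3 reads were worth 0.0789 to 0.105.

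Genes with a mean of at least 1 (11580) were tested with limma 3.58.1 (intensity trend, R 4.3.3) on log2(value + 1), which understates changes of low genes, with Benjamini-Hochberg adjustment over all genes tested. Single genes also had a two-sided exact permutation test. Replicate libraries differed beyond counting noise (chi-square per degree of freedom 12.6 to 84.3). On simulated counts (11572 genes), limma recovered 14.3% of 1.25-fold, 78.6% of 1.5-fold and 98.1% of 2-fold changes. Of its calls there, 5.62% were false, against 8.97% by DESeq2. The simulation gave every gene the same dispersion, and limma made 160 calls in it, against 758 in the real data. These rates therefore need not hold for the real genes.

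Alternatives were DESeq2 1.42.0 and edgeR 4.0.16 (quasi-likelihood) on recovered reads, limma voom, total count and upper quartile scaling, pseudocounts of 0.1 and 5, all genes above 0, a mean of at least 5, no trend, a replicate block, and leaving out each library. Named genes were all members, every other tested Ugt row, called genes of each pathway list or else its 2 highest, and the 3 genes most correlated with the member of smallest p. The members and lists were chosen with earlier results of these data known. Promoters came from a RefSeq table. ATAC-seq and ChIP-seq samples were not analysed here. The regulator list holds 14 genes after 1 gene, not reported here, was left out.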

Additional observations from a re-analysis of the deposited data

How the results depend on the processing

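The count of called members was 2 by limma, 4 with DESeq2, and 1 with all genes above 0 or with no intensity trend, and it lay between 1 and 3 when a single library was left out. The count over all genes was 758 of 11580 (6.55%) by limma and 1084 (9.36%) with DESeq2. It was 484 of 17216 (2.81%) with all genes above 0 and 536 (4.63%) with no intensity trend. When a single library was left out, it lay between 335 (2.89%, without L-RalyKO liver 1) and 812 (7.01%, without control liver 3). Without control liver 1 it was 368, without L-RalyKO liver 2 it was 440, and without L-RalyKO liver 3 it was 502. Genes of the pathway lists numbered 6 by limma, 10 with DESeq2, and 3 to 6 when a single library was left out, the lowest without L-RalyKO liver 1 or control liver 1. Whether same-numbered livers were paired is not given in the sources used here. Their deviations had correlations of 0.066, -0.024 and 0.02 over the tested genes, which cannot exclude a pairing that affects some genes. With the number as a replicate block, 704 genes and 1 member (Ugt2b1) were called, and Ugt2b5 had an adjusted p of 0.0532 by limma. Among the other named genes the block gave Ces1e 0.0243 and Sox9 0.0264, now called, and Cyp1a2 0.0843, no longer called. With total count scaling the median log2 fold change of all genes was -0.027 and 324 genes were called higher and 469 lower, against 389 and 369, while the members called were again Ugt2b1 and Ugt2b5. The cause of these differences was not tested.

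Among the genes given with a fold change in the text, signs turned in fits without 1 library and in no other setting. The log2 fold change ranged over these 6 fits from -0.09 to 0.02 for Ugt3a2, -0.21 to 0.17 for Ugt1a5, -0.03 to 0.02 for Pgm2, -0.12 to 0.03 for Blvrb, -0.01 to 0.08 for Hmox2, -0.11 to 0.19 for Ugdh and -0.05 to 0.04 for Nr1i3. The summed Ugt2b rows kept a log2 difference of 0.26 to 0.35 over scaling choices and left-out libraries, and the summed Ugt1a rows lay between -0.06 and 0.02.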
